A study of Mus musculus with 2 samples.

Results

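The genes described here belong to the transforming growth factor beta (TGF-beta) pathway in cells from infarcted mouse hearts. They are 10 of the 55357 features in the deposited tables: the ligand Tgfb1, the integrin subunit Itgb8, the receptors Tgfbr1 and Tgfbr2, the signal carrier Smad3, and the regulators Smad7, Ski, Skil, Tgif1 and Pmepa1. They were chosen by name, with earlier results of these data known, and all 10 were found in both tables. Hearts were taken 7 days after myocardial infarction (MI, in which part of the heart muscle dies for lack of blood). The anti-PD1 group, whose mice received an antibody to the inhibitory receptor made from Pdcd1, was 1 library, and the anti-IgG group was 1 library. Both groups were labelled wild type (WT), both had MI, and both were labelled as T cells from heart. Strain, age, dose and the number of mice behind each library are not given in the sources used here. The series' design text speaks of sorted T cells, whereas the labelled protocol describes no sorting step.

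TGF-beta is secreted as a latent complex and must be released before it can bind its receptors. The receptor encoded by Tgfbr2 binds the ligand and activates the one encoded by Tgfbr1, which phosphorylates Smad2 and Smad3 so that they enter the nucleus with Smad4. Several target genes of the pathway encode its own inhibitors, and in T cells the pathway is known for restraining activation and for supporting regulatory and tissue-resident cells.

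With 1 library a group, no difference here could be set against the spread between replicates, and no test was made. The anti-PD1 library held 6026 barcodes and 29046341 UMIs (unique molecular identifiers, which count the RNA molecules captured), and the anti-IgG library held 4380 barcodes and 22806806 UMIs. After filtering, 5835 anti-PD1 and 4309 anti-IgG cells were kept, with medians of 3858 and 4079 UMIs. Cells were placed in exclusive gates by marker UMIs, and 4799 anti-PD1 cells (82.2%) and 3604 anti-IgG cells (83.6%) fell in the T gate, which needs at least 2 UMIs of Cd3d, Cd3e and Cd3g together. Cd3e stood at 966 CPM (UMIs of the gene per 1e6 UMIs of the same cells) in anti-PD1 and 972 CPM in anti-IgG T cells. Cd79a, a B cell gene, stood at 0.756 and 0.600 CPM, and the 5 B cell markers summed to 13.3 and 13.6 CPM. The gate itself was set by these markers, so their levels are no check of the T label. Pdcd1 itself stood at 199 CPM in anti-PD1 and 139 CPM in anti-IgG T cells. The B gate held 143 anti-PD1 and 58 anti-IgG cells, the myeloid gate 112 and 56, the endothelial gate 36 and 50, the fibroblast gate 20 and 19, and the natural killer (NK) gate 12 and 5. No gate took 698 anti-PD1 and 510 anti-IgG cells, of which 435 and 314 carried Cd3 UMIs together with markers of another lineage. The libraries shared 47 barcode sequences, 46 of them after filtering. The median cosine similarity between the cells of a shared barcode was 0.526, against 0.504 for cells paired with a different barcode.

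Coordinates are those of the mouse build GRCm38 (mm10), and no member overlaps another gene in the GENCODE annotation of that build. Tgfb1 spans chr7:25687002-25705077 on the plus strand, Skil chr3:31095058-31122577 on the plus strand, Tgif1 chr17:70844205-70853546 on the minus strand and Pmepa1 chr2:173224458-173276533 on the minus strand. Itgb8 spans chr12:119158022-119238802, Tgfbr2 chr9:116084293-116175360 and Smad3 chr9:63646767-63757994, all on the minus strand. Tgfbr1 spans chr4:47353222-47414931 on the plus strand and Ski chr4:155154075-155222592 on the minus strand. RefSeq promoter windows (build GRCm38.p6, 250 bases before to 50 after a start) matched 7 members with 12 windows. Smad7, Skil and Pmepa1 had no window. The windows of Tgfb1 and Tgif1, both called higher in anti-PD1 T cells, are shown with that of Tgfbr2, whose level was close between the libraries. Capitals mark CAGAC, the short Smad element, read on either strand. The windows are chr7:25686752-25687051 for Tgfb1, chr17:70853483-70853782 for the Tgif1 start that lies furthest upstream, and chr9:116175314-116175613 for Tgfbr2.
Tgfb1 promoter: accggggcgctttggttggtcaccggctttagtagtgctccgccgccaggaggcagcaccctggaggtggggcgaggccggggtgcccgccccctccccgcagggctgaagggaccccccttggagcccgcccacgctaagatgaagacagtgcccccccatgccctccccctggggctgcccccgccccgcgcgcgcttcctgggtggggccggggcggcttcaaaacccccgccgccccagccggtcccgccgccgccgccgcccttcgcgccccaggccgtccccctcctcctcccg
Tgif1 promoter: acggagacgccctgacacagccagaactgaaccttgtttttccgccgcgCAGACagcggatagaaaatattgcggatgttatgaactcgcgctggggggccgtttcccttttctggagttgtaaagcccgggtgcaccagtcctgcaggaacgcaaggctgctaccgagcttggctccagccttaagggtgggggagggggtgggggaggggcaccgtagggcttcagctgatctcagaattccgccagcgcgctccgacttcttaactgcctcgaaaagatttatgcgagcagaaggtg
Tgfbr2 promoter: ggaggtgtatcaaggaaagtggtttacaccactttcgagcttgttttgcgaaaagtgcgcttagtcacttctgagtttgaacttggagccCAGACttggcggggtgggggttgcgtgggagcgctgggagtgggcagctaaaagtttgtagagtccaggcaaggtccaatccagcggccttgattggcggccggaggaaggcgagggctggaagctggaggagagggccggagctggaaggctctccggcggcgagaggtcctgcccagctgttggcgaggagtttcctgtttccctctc

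The Tgfb1 window held no match to any motif searched, and the Tgif1 and Tgfbr2 windows held CAGAC 1 time each. CAGAC is frequent, with a match in 49.6% of all 32851 windows. Across the 12 member windows it also occurred in the Itgb8 window, in 1 of the Tgfbr1 windows and in further Tgif1 windows. The Smad palindrome GTCTAGAC, present in 0.213% of all windows, matched no member window. The AP-1 motif TGANTCA (7.81% of all windows), the cyclic AMP response element TGACGTCA (1.79%) and its shorter form TGACG (20.8%), which lies within it, also matched none. Both strands were searched for each motif. Smad7, Skil and Pmepa1 had no window and were not searched, so nothing is known here of motifs in their promoters.

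In T cells, 4 of the 10 members were higher in the anti-PD1 than in the anti-IgG library, the ligand Tgfb1 and the regulators Skil, Tgif1 and Pmepa1, by 1.86 to 2.76 times. No member was called lower, and the receptors stood close between the libraries. Smad3, Ski and Smad7 had ratios of 1.23 to 1.33 that were not called. A gene was called when its ratio was at least 1.5 either way, its summed UMIs were at least 50 and its 95% counting interval left out 1. By that rule 5.92% of 11767 genes were called higher in anti-PD1 T cells and 9.09% were called lower. The members were picked with earlier results of these data known. Counts of calls beside such shares, here and below, are thus no test of the set. At a limit of 2 in place of 1.5, Skil and Tgif1 were the 2 members called, since Tgfb1 and Pmepa1 lay under it. The share of all genes past that limit was not counted. The median log2 ratio of the members was 0.36, beside -0.10 over all genes compared. Intervals cover counting error only and are too narrow where the UMIs of a gene lie together in few cells.

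**Figure D1:**
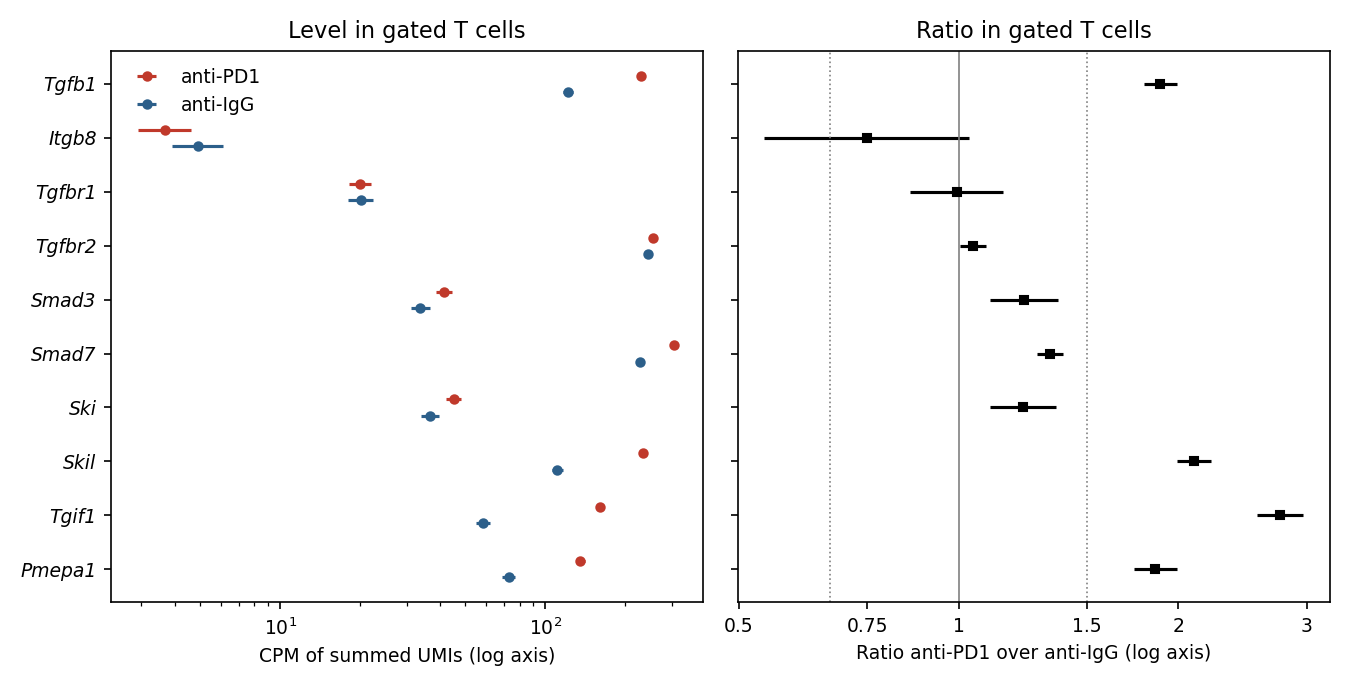
Levels of the 10 members in T cells in CPM (left, log axis), with anti-PD1 and anti-IgG as separate points and 95% Poisson intervals as bars, and their ratio of anti-PD1 over anti-IgG with its 95% interval (right, log axis, dotted lines at 1.5-fold either way). Tgfb1, Skil, Tgif1 and Pmepa1 have the anti-PD1 point well above the anti-IgG point, while the points of Tgfbr1 and Tgfbr2 nearly coincide.

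Tgfb1 encodes the main TGF-beta ligand of immune cells. It had 4856 UMIs or 229 CPM in anti-PD1 T cells, against 2022 UMIs or 121 CPM in anti-IgG T cells, a ratio of 1.89 (95% interval 1.79 to 1.99). Its ratio ranked 356 of the 11767 genes. The number of T cells with a Tgfb1 UMI was also larger, 2377 of 4799 anti-PD1 cells (49.5%) and 1283 of 3604 anti-IgG cells (35.6%). With each cell thinned to 1000 UMIs, 19.2% of anti-PD1 T cells (95% interval 18.1 to 20.4) and 10.7% of anti-IgG T cells (9.69 to 11.7) had a Tgfb1 UMI. Platelets carry Tgfb1 RNA, and their 5 markers summed to 2.08 CPM in anti-PD1 T cells and 2.58 CPM in anti-IgG T cells. The 12 myeloid markers summed to 13.7 CPM in anti-PD1 and 8.94 CPM in anti-IgG T cells, against 29096 and 27556 CPM in the myeloid gate itself. In anti-PD1 T cells 11 of these 12 were detected, with Clec9a at 0, and in anti-IgG T cells all 12. The part of these traces in the Tgfb1 difference was not tested.

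Itgb8 encodes the beta8 integrin subunit, which pairs with the alphav subunit to release TGF-beta from its latent complex. It was rare, with 78 UMIs in 52 anti-PD1 T cells and 82 UMIs in 55 anti-IgG T cells. Its ratio of 0.749 (0.542 to 1.03) was not called. After thinning each cell to 1000 UMIs, which left 15 anti-PD1 and 23 anti-IgG UMIs of Itgb8, the ratio was 0.490 (0.238 to 0.980). Itgb8 UMIs lay mostly in Foxp3 cells, T cells with at least 1 UMI of the regulatory T cell factor Foxp3. These cells held 73.1% of the Itgb8 UMIs but 9.15% of all T cell UMIs in the anti-PD1 library, and 82.9% of the Itgb8 UMIs but 8.56% of all T cell UMIs in the anti-IgG library.

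Both receptor genes stood close between the libraries. Tgfbr1, the signalling receptor, had 423 UMIs or 20.0 CPM in anti-PD1 T cells and 335 UMIs or 20.1 CPM in anti-IgG T cells, a ratio of 0.994 (0.859 to 1.15). Tgfbr2, the ligand-binding receptor, had 5404 UMIs or 255 CPM in anti-PD1 T cells and 4065 UMIs or 244 CPM in anti-IgG T cells, a ratio of 1.05 (1.00 to 1.09). Tgfbr2 UMIs were found in 22.9% of thinned anti-PD1 T cells and 22.1% of thinned anti-IgG T cells. Smad3, the carrier of the receptor signal, had 878 UMIs or 41.5 CPM in anti-PD1 T cells and 563 UMIs or 33.8 CPM in anti-IgG T cells. Its ratio of 1.23 (1.10 to 1.37) lay above 1 but under the 1.5-fold limit.

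The regulators differed among themselves. Smad7, an inhibitory Smad that blocks the receptor, had 6446 UMIs or 305 CPM in anti-PD1 T cells and 3806 UMIs or 228 CPM in anti-IgG T cells. Its ratio of 1.33 (1.28 to 1.39) was under the fold limit. Ski and Skil encode related nuclear proteins that repress Smad target genes. Ski had 954 UMIs or 45.1 CPM in anti-PD1 and 613 UMIs or 36.8 CPM in anti-IgG T cells, a ratio of 1.23 (1.11 to 1.36) that was not called. Skil had 4934 UMIs or 233 CPM in anti-PD1 and 1850 UMIs or 111 CPM in anti-IgG T cells, a ratio of 2.10 (1.99 to 2.22) that was called. The related repressors thus stood apart, and the intervals of their ratios did not overlap. Tgif1, a homeodomain corepressor of Smads, had 3403 UMIs or 161 CPM in anti-PD1 and 972 UMIs or 58.3 CPM in anti-IgG T cells. Its ratio of 2.76 (2.57 to 2.96) was the highest among the members and ranked 105 of 11767 genes. Pmepa1, a membrane protein that binds Smad2 and Smad3 and keeps them from the receptor, had 2869 UMIs or 136 CPM in anti-PD1 and 1215 UMIs or 72.9 CPM in anti-IgG T cells, a ratio of 1.86 (1.74 to 1.99).

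Shares of cells told the same order for these regulators. After thinning to 1000 UMIs, Tgif1 was seen in 14.5% of anti-PD1 T cells and 5.08% of anti-IgG T cells, beside 41.1% and 19.5% before thinning. Skil was seen in 19.8% of anti-PD1 and 10.3% of anti-IgG thinned T cells, beside 51.3% and 32.8% before. Pmepa1 was seen in 11.4% of anti-PD1 and 6.31% of anti-IgG thinned T cells, beside 33.0% and 22.8% before. Thinning left out 27 anti-PD1 and 20 anti-IgG T cells, and the T cell medians before it were 3743 and 3957 UMIs. B cells had medians of 2381 UMIs in anti-PD1 and 2717.5 UMIs in anti-IgG cells. Of 142 anti-PD1 and 58 anti-IgG thinned B cells, 24 (16.9%) and 5 (8.62%) had a Tgif1 UMI. For Skil these were 11 (7.75%) and 3 (5.17%), and for Pmepa1 5 (3.52%) and 1 (1.72%). For each of these genes the B cell intervals of the libraries overlapped. B cells are not known to lack these genes, so the share that free RNA gives was not measured.

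**Figure D2:**
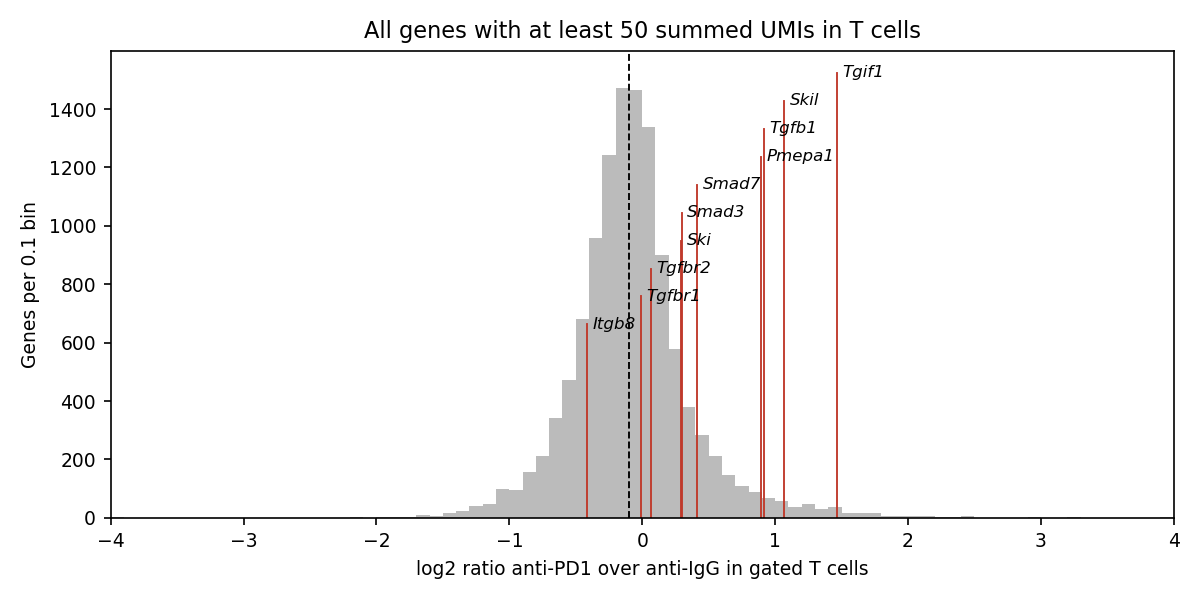
Histogram of the log2 ratio of anti-PD1 over anti-IgG in T cells for all 11767 genes with at least 50 summed UMIs, with genes per bin on the y axis, values beyond the ends of the axis set to its ends, the median dashed and the 10 members marked by name at heights that carry no value. Tgif1, Skil, Tgfb1 and Pmepa1 lie in the upper part of the distribution, whose median is -0.10, and Itgb8 lies below that median.

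The T cells were split into 8 subsets by their own marker UMIs, to see whether the differences lay in 1 kind of T cell. The subsets were Foxp3 cells (309 anti-PD1 and 242 anti-IgG cells), gamma-delta or type 17 cells (767 and 349), cells with NK receptor UMIs (232 and 137), CD8 naive-type (626 and 538), other CD8 (463 and 236), CD4 naive-type (583 and 611), other CD4 (512 and 588) and the remaining T cells (1307 and 903). Of 80 member and subset pairs, 73 had at least 50 summed UMIs, and 36 of these were called higher and 1 lower in the anti-PD1 library. Among 9 members compared, 6 were called higher in NK receptor cells, where 7.29% of all genes were, and 6 in other CD8 cells, where 5.66% were. Gamma-delta or type 17 cells had 4 of 9 (5.28% of all genes), CD8 naive-type 4 of 9 (5.39%), CD4 naive-type 4 of 9 (4.78%), other CD4 4 of 9 (5.68%) and the remaining T cells 4 of 9 (5.2%). Foxp3 cells had 4 of 10 called higher (4.86% of all genes) and 1 called lower.

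Tgfb1, Skil and Tgif1 were called higher in all 8 subsets. Tgfb1 ratios ran from 1.55 in CD8 naive-type to 2.73 in NK receptor cells, Skil ratios from 1.71 in gamma-delta or type 17 to 3.09 in NK receptor cells, and Tgif1 ratios from 1.99 in CD8 naive-type to 4.27 in other CD4 cells. Pmepa1 was called in 7 subsets, with 1.48 (1.24 to 1.76) in other CD4 cells as the exception. Smad7 was called in 3 subsets, at 2.46 in NK receptor, 1.63 in other CD8 and 1.54 in other CD4 cells. Ski was called in NK receptor cells at 1.66 and in other CD8 cells at 1.54. Smad3, Tgfbr1 and Tgfbr2 were called in none of the 8, with ratios of 0.897 to 1.49, 0.802 to 1.38 and 0.871 to 1.21.

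**Figure D3:**
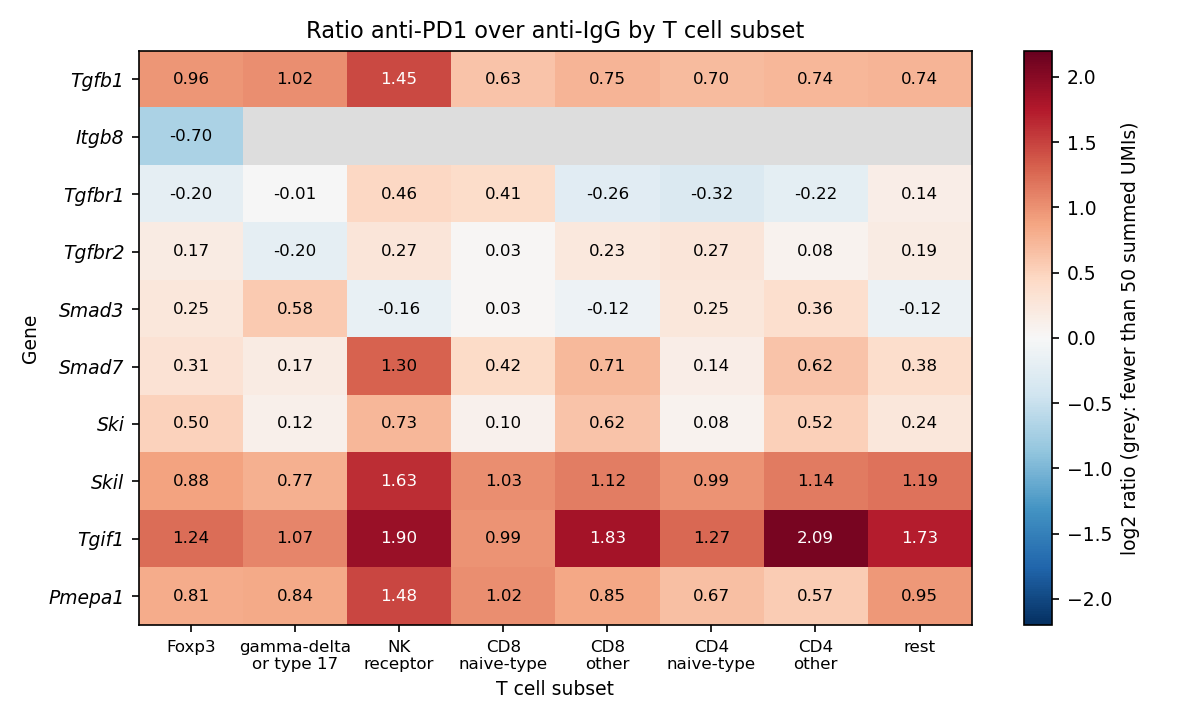
Log2 ratio of anti-PD1 over anti-IgG for each member (rows) in each T cell subset (columns), with grey where fewer than 50 UMIs were summed. The rows of Tgfb1, Skil, Tgif1 and Pmepa1 are above 0 in every subset, and the single Itgb8 value, in Foxp3 cells, is -0.70.

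The NK receptor cells had the highest ratios of Tgfb1, Smad7, Ski, Skil and Pmepa1. They were T cells by their Cd3 UMIs, with medians of 13 in anti-PD1 and 14 in anti-IgG cells. Smad7 stood at 420 CPM there in the anti-PD1 library, the highest of the 8 subsets, and at 171 CPM in the anti-IgG library, the lowest of the 8. The anti-PD1 interval lay apart from the next subset, whereas the anti-IgG interval overlapped those of other CD4 and gamma-delta or type 17 cells among others. Skil stood at 258 CPM in anti-PD1 and 83.6 CPM in anti-IgG NK receptor cells, and Pmepa1 at 217 and 77.9 CPM. Differences between subsets in these ratios were not tested.

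The members also differed in where they were high. Tgfb1 was highest in gamma-delta or type 17 cells in both libraries, at 335 CPM in anti-PD1 and 165 CPM in anti-IgG, although its interval overlapped that of the next subset in each, and lowest in CD4 naive-type cells, at 140 and 86.1 CPM. Smad3 was likewise highest in gamma-delta or type 17 cells, at 78.1 CPM in anti-PD1 and 52.3 CPM in anti-IgG, with the next subset apart in the anti-PD1 library and overlapping in the anti-IgG library. It was lowest in CD8 naive-type cells, at 20.7 and 20.2 CPM. The receptors ran in opposite orders at the Foxp3 cells: Tgfbr2 was lowest there, at 179 CPM in anti-PD1 and 159 CPM in anti-IgG, and Tgfbr1 was highest, at 29.9 and 34.4 CPM, with intervals that overlapped those of the next subset. Tgfbr2 was highest in CD4 naive-type cells, at 377 CPM in anti-PD1 and 312 CPM in anti-IgG, apart from the next subset in the anti-PD1 library only. Pmepa1 was highest in other CD8 cells, at 220 CPM in anti-PD1 and 122 CPM in anti-IgG, again overlapping the next subset, and lowest in CD4 naive-type cells, at 74.0 and 46.5 CPM. Tgif1 was lowest in other CD8 cells, at 101 CPM in anti-PD1 and 28.5 CPM in anti-IgG. Skil was lowest in CD8 naive-type cells, at 163 CPM in anti-PD1 and 79.8 CPM in anti-IgG. The intervals of these lowest levels overlapped those of the next subset, except for Skil and Pmepa1 in the anti-PD1 library.

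The gamma-delta or type 17 subset, where Tgfb1 and Smad3 were highest, made up 16.0% of anti-PD1 and 9.68% of anti-IgG T cells. With the subsets weighted to the same mix in both libraries, the Tgfb1 ratio was 1.81 and the Smad3 ratio 1.15. Within gamma-delta or type 17 cells the Smad3 ratio was 1.49 (1.19 to 1.89), just under the 1.5-fold limit. In the other subsets it ran from 0.897 in NK receptor cells to 1.29 in other CD4 cells.

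Within Foxp3 cells Itgb8 was the 1 member called lower in the anti-PD1 library. It had 57 UMIs in 37 of 309 anti-PD1 Foxp3 cells, against 68 UMIs in 43 of 242 anti-IgG Foxp3 cells. These counts were 29.4 and 47.7 CPM, a ratio of 0.617 (0.426 to 0.891), where 6.49% of 7077 genes were called lower. Single cells held up to 5 Itgb8 UMIs in the anti-PD1 and up to 6 in the anti-IgG library. After thinning, 3.57% of anti-PD1 Foxp3 cells (1.80 to 6.30) and 6.61% of anti-IgG Foxp3 cells (3.83 to 10.5) had an Itgb8 UMI, and these intervals overlapped. Outside Foxp3 cells, other CD4 cells had 9 Itgb8 UMIs in 5 anti-PD1 cells and 0 in anti-IgG cells.

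Lrrc32, which encodes the protein GARP that holds latent TGF-beta on regulatory T cells, lay in the same cells. Foxp3 cells held 68.9% of its anti-PD1 and 81.3% of its anti-IgG T cell UMIs. Its level there was 57.3 CPM in anti-PD1 and 36.5 CPM in anti-IgG cells, a ratio of 1.57 (1.12 to 2.23). Itgb8 and Lrrc32, both tied to handling latent TGF-beta, thus had ratios on opposite sides of 1 in Foxp3 cells.

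**Figure D4:**
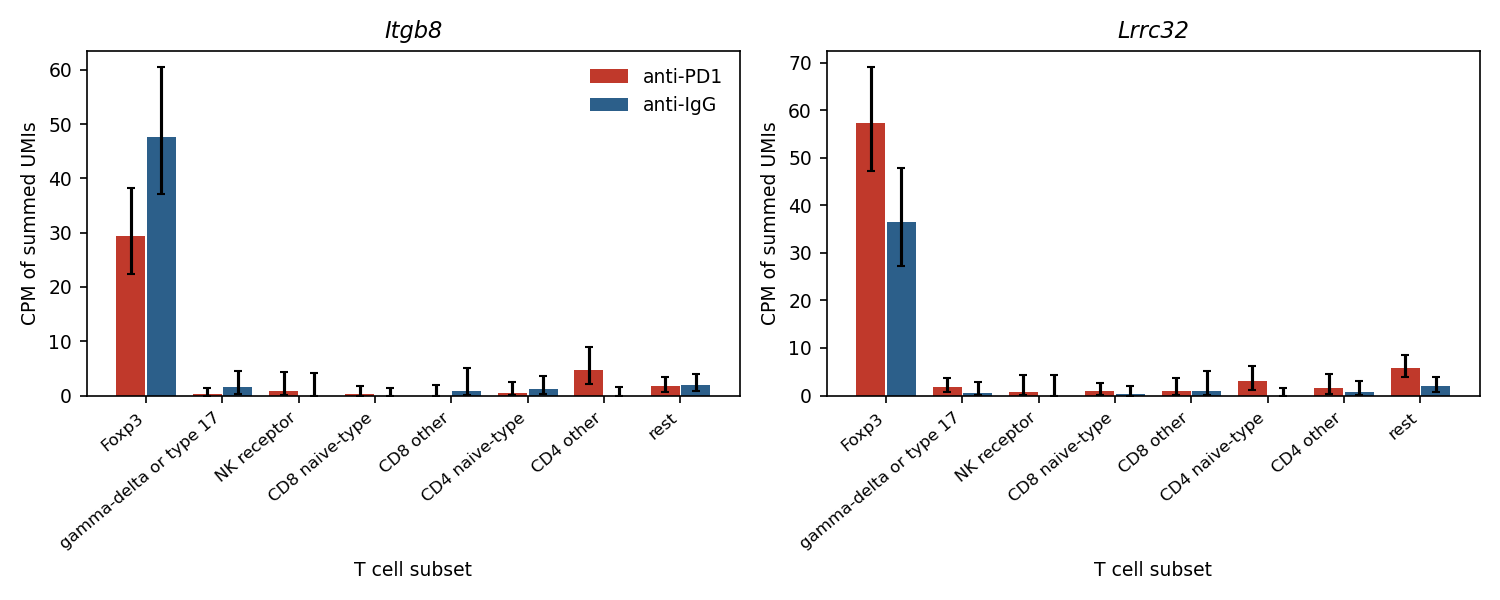
Levels of Itgb8 and Lrrc32 in CPM in the 8 T cell subsets, anti-PD1 and anti-IgG side by side, with 95% Poisson intervals. Both genes are far higher in Foxp3 cells than elsewhere, where Itgb8 is 29.4 and 47.7 CPM and Lrrc32 is 57.3 and 36.5 CPM.

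Outside the T gate, 5 of the 10 members stood apart from T cells in B cells, and 5 in myeloid cells, in that their counting intervals lay to the same side of the T cell level in both libraries. Of the 11767 genes compared in T cells, 13% stood apart in this way in B cells and 24.7% in myeloid cells. The 5 in B cells were Tgfbr2, Smad3, Smad7, Ski and Pmepa1, all lower than in T cells. The 5 in myeloid cells were Tgfb1 and Tgfbr1, higher than in T cells, and Tgfbr2, Smad3 and Smad7, lower. With each cell weighted alike, 2 members stood apart in B cells, Pmepa1 lower again and Tgfb1 higher, where 9.15% of genes did. In myeloid cells, where 19.3% of genes did, 6 then stood apart, the earlier 5 and Ski, which was higher. Tgfb1 stood at 303 CPM in anti-PD1 and 226 CPM in anti-IgG myeloid cells. That was 1.32 (1.14 to 1.53) and 1.86 (1.47 to 2.33) times its T cell level. Tgfbr1 stood at 221 CPM in anti-PD1 and 217 CPM in anti-IgG myeloid cells, which was 11.1 and 10.8 times its T cell level. Tgfbr2 was lower in myeloid than in T cells, at 140 and 151 CPM, or 0.546 and 0.621 times the T cell level. Smad7 was lower still, at 52.9 CPM in anti-PD1 and 77.1 CPM in anti-IgG myeloid cells, and Smad3 had 12 and 2 UMIs there. In B cells Smad3 had 8 anti-PD1 and 1 anti-IgG UMIs and Ski 1 and 0. Itgb8 was at 0 UMIs in the B, myeloid and endothelial gates of both libraries. Pmepa1 reached 1019 CPM in 20 anti-PD1 and 1338 CPM in 19 anti-IgG fibroblasts, 7.51 and 18.4 times its T cell level. The 5 fibroblast markers summed to 2.32 CPM in anti-PD1 and 3.54 CPM in anti-IgG T cells, with Pdgfra at 0 in both.

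**Figure D5:**
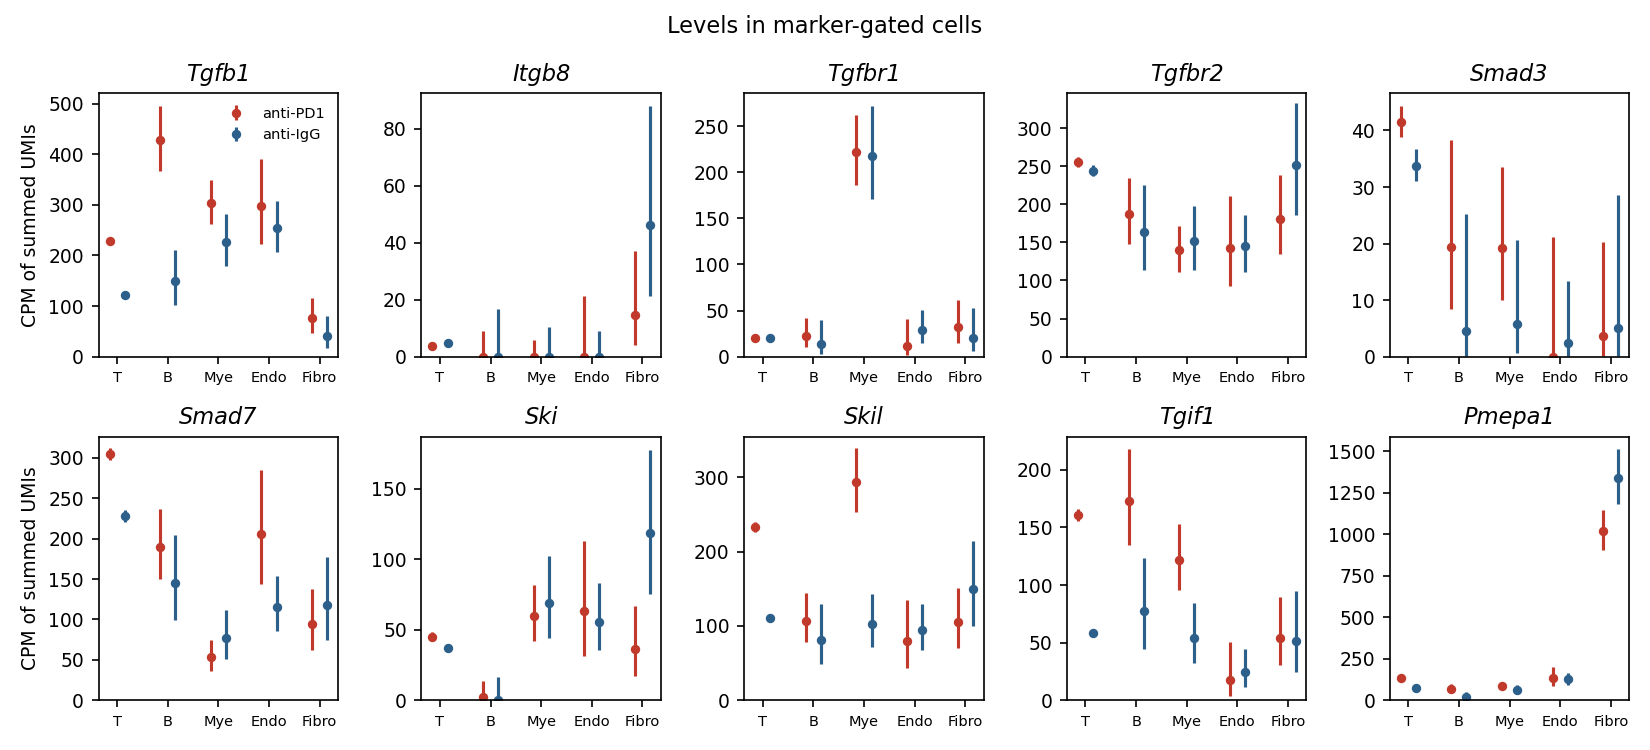
Levels of the 10 members in CPM (y axis, from 0, scaled for each gene) in the T, B, myeloid, endothelial and fibroblast gates, anti-PD1 and anti-IgG side by side, with 95% Poisson intervals. Tgfbr1 is highest in the myeloid gate and Pmepa1 in the fibroblast gate in both libraries.

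Among the members compared between libraries in other gates, Tgif1 was called higher in both B and myeloid cells. In B cells it had 71 UMIs or 173 CPM in anti-PD1 and 17 UMIs or 77.0 CPM in anti-IgG cells, a ratio of 2.24 (1.31 to 4.06). Tgfb1 was also called there, at 428 CPM in anti-PD1 and 150 CPM in anti-IgG cells, a ratio of 2.86 (1.97 to 4.29). These were 2 of 5 members compared, where 11.9% of all genes were called higher. In myeloid cells Tgif1 had 76 UMIs in anti-PD1 and 19 in anti-IgG cells, a ratio of 2.25 (1.34 to 3.93), and Skil had 183 and 36 UMIs, a ratio of 2.85 (1.99 to 4.20). These were 2 of 8 members compared, where 7.61% of all genes were called higher. Thinning to 1000 UMIs left these genes with under 50 summed UMIs in these gates, too few for a call, except Tgfb1 in B cells at 3.27 (1.63 to 7.43). The thinned ratio of Skil in myeloid cells was 2.47 (1.00 to 7.30), from 28 anti-PD1 and 6 anti-IgG UMIs. That of Tgif1 was 2.12 (0.803 to 7.08) in B cells, from 26 and 5 UMIs, and 0.882 (0.291 to 2.95) in myeloid cells, from 10 and 6 UMIs. Tgfb1 was not called in myeloid cells, at 1.34 (1.03 to 1.77). Smad7 was called in endothelial cells, at 1.78 (1.12 to 2.80), 1 of 5 members compared where 5.9% of genes were called higher. In fibroblasts 3 members were compared and 0 were called, where 23.6% of genes were called in either direction, and in the NK gate no member reached 50 summed UMIs. In the cells that entered no gate, 3 of 10 members were called higher, Tgif1 at 2.29 (2.00 to 2.63), Skil at 1.89 (1.70 to 2.09) and Tgfb1 at 1.67 (1.54 to 1.82), where 4.59% of genes were called higher. Pmepa1 was not called in them, at 1.21 (1.09 to 1.36).

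Of 61 further pathway genes, 47 could be compared in T cells, and 8 were called higher and 0 lower in the anti-PD1 library, where 5.92% of all genes were called higher and 9.09% lower. Their median log2 ratio was 0.05. These genes too were picked with earlier results of these data known. Among the ligands and latency genes 2 of 8 were called, Lrrc32 at 1.98 (1.47 to 2.69) and Furin, the protease that cuts the TGF-beta precursor, at 1.88 (1.72 to 2.05). Furin was highest in gamma-delta or type 17 cells, at 253 CPM in anti-PD1 and 157 CPM in anti-IgG. These cells held 55.1% of its anti-PD1 and 40.4% of its anti-IgG T cell UMIs. With the subsets weighted to the same mix, the Furin ratio was 1.58. Among other receptors and Smads 1 of 12 was called, Acvr1, a type I receptor of the bone morphogenetic proteins, at 1.95 (1.08 to 3.64) from 42 anti-PD1 and 17 anti-IgG UMIs, a call that held in 8 of 12 alternatives. Smad2 and Smad4 were not called, at 0.949 and 0.790.

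Among the other regulators 3 of 18 were called. Tgif2, the close relative of Tgif1, had 408 UMIs in anti-PD1 and 100 in anti-IgG T cells, a ratio of 3.21 (2.58 to 4.04). Bambi, a receptor-like inhibitor without a kinase, had 478 UMIs in anti-PD1 and 115 in anti-IgG T cells, a ratio of 3.27 (2.66 to 4.05). Zeb1, a repressor that interacts with Smads, was called at 1.64 (1.53 to 1.76). Of the genes induced by TGF-beta in T cells, 2 of 9 were called. Klf10, an early TGF-beta response factor, stood at 2.14 (1.83 to 2.52) and Rgs16, a regulator of G protein signalling, at 3.68 (3.05 to 4.48). The Rgs16 ratio was 5.96 after thinning and 2.89 without the NK receptor subset. Itgae, the integrin chain of tissue-resident T cells, was not called, at 62.0 CPM in anti-PD1 and 66.9 CPM in anti-IgG T cells. Id2, at 241 CPM in anti-PD1 and 331 CPM in anti-IgG T cells, and Nedd9, at 95.1 and 101 CPM, were not called either. The ratios of Itgae (0.93), Id2 (0.73) and Nedd9 (0.94) lay under 1. Those of Ccr8 (1.22), Car2 (1.15), Cd101 (1.14) and Id3 (1.10), also not called, lay above 1. Among these uncalled genes, only the intervals of Id2 and Ccr8 left out 1. The median log2 ratio of the 9 genes compared was 0.18.

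The genes whose levels ran most like those of the members were taken over 16 points, the 8 T subsets in 2 libraries. The points share a library and its depth, so the Pearson correlations describe these libraries. For Tgif1 the closest genes were Sik1 (0.983), Cbarp (0.957) and Kdm6b (0.947), and for Skil they were Nr4a1 (0.979), Crem (0.974) and Per1 (0.970). With the values centred within each library, Sik1 was still first for Tgif1, at 0.949, while Ubxn6 and Krr1 took the places of Cbarp and Kdm6b. For Skil, Dazap2 (0.931) and Snx14 (0.911) then led, Nr4a1 was the third at 0.905, and Crem and Per1 left the closest 3. Smad3 ran closest to Atf6 in both, at 0.935 and 0.963 after centring. For Tgfb1 the closest was Kdm2b at 0.958, and after centring Osbpl3 at 0.947. Tgfbr1 ran closest to Tnfrsf18 at 0.860 and Cd200r1 at 0.856, and both led after centring as well. Itgb8 had too few UMIs for this description.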

How the data were processed

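Droplet 3' single-cell libraries were prepared from mouse heart cells, per the labels' protocols. The deposited values are UMI counts, not normalized by the authors. They were written by Cell Ranger 7.1.0 per the file headers, whereas Cell Ranger 7.2.0, the build mm10 and Seurat 4.4.0 stand in the submitters' processing notes. The members and gene lists were chosen with earlier results of these data known.

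Barcodes under 300 genes or 500 UMIs, or above 10% mitochondrial UMIs, were removed (191 anti-PD1 and 71 anti-IgG). Gates needed at least 2 UMIs of NK markers, 3 of B or plasmacytoid dendritic cell markers, or 4 of myeloid, endothelial or fibroblast markers, and at most 1 Cd3 UMI outside T cells. Naive-type, gamma-delta or type 17 and NK receptor subsets needed 2 marker UMIs. No doublets were removed, apart from cells that met the minimum of more than 1 lineage. UMIs were summed per library and gate and divided by the total of all genes (CPM), with exact Poisson intervals. Ratios had exact intervals conditional on the summed UMIs, shares Clopper-Pearson intervals, all at 95%. The ratio procedure was run on simulated independent Poisson counts, the model that its intervals assume. Those counts held no clustering of UMIs in few cells and no spread between libraries, so these limits went unchecked. Beside markers, the named genes were all members and the called pathway genes. Smad2, Smad4 and the compared genes induced by TGF-beta were also named where not called. The 3 genes most like each member with at least 200 UMIs were found by Pearson correlation of log2(CPM + 10). They are given in part, with none for Tgfbr2, Smad7, Ski and Pmepa1. Of 55357 gene IDs, 52081 matched GENCODE M21. Alternatives covered the T gate, totals, subset mix, cell weighting, thinning, Scrublet, high-UMI cells and, added after seeing the data, shared barcodes, the NK receptor subset, centring and a fold of 2 for the members. Python 3.11.15, numpy 2.4.6, scipy 1.17.1, pandas 2.3.3, scanpy 1.11.5 and matplotlib 3.10.9 were used.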

Additional observations from a re-analysis of the deposited data

Results flagged for a closer look

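Pmepa1 lay on opposite sides of 1 in different gates, with a ratio of anti-PD1 over anti-IgG of 1.86 in T cells and 0.761 in fibroblasts, which rests on 20 anti-PD1 and 19 anti-IgG cells. Tgfbr2 lay on opposite sides in T cell subsets, at 1.21 in CD4 naive-type cells and 0.871 in gamma-delta or type 17 cells. All 4 intervals left out 1, and neither difference between cell types was tested, since each group was 1 library. In fibroblasts, a single cell held 54 of the 281 anti-PD1 Pmepa1 UMIs, and another held 45 of the 260 anti-IgG UMIs. The fibroblast interval covers counting error only and is too narrow for such clustering.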

How the results depend on the processing

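No paired analysis was possible because each group was 1 library, and for the same reason no library could be left out. Over 12 alternatives in T cells that kept the fold limit of 1.5, Tgfb1 (1.81 to 2.03), Skil (2.06 to 2.25), Tgif1 (2.63 to 2.97) and Pmepa1 (1.79 to 1.99) were the members called higher in each, and 0 were called lower. Itgb8 ran from 0.490 after thinning to 0.803. Acvr1 was called in 8 of 12, at 1.57 with the same mix of subsets. Rgs16 reached 5.96 after thinning. At a fold of 2, a limit added after seeing the data for the members, 2 members were called higher in place of 4. Of the pathway genes, 4 were called in place of 8. The share of all genes called was not counted at that limit or after thinning. After thinning to 1000 UMIs, 1 member was called in B cells in place of 2, and 0 in myeloid cells in place of 2. The others kept under 50 summed UMIs, too few for a call. For Tgif1 the thinned intervals also held 1 in both gates, and its myeloid ratio changed sides of 1. The thinned ratios without a call were 2.12 for Tgif1 in B cells and 2.47 for Skil in myeloid cells. For Tgif1 in myeloid cells the ratio was 0.882 (0.291 to 2.95), from 10 anti-PD1 and 6 anti-IgG UMIs. Of the members, 5 stood apart from T cells in B cells of both libraries (13% of genes), and 2 with each cell weighted alike (9.15%). Pmepa1 alone was in both of these sets. The other causes were not tested. B and myeloid values rest on few cells.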

Other observations

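Rgs16 had 148 UMIs in anti-PD1 and 3 in anti-IgG NK receptor T cells, a ratio of 33.0 (11.1 to 162). Red cell markers summed to 5 UMIs in anti-PD1 and 1065 UMIs in anti-IgG T cells, and the part of this difference in the members' values was not tested.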
